A study of Mus musculus with 4 samples.

Results

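The germ cell genes described here are Ddx4, Dazl, Mael, Taf7l, Slc25a31, Stk31, Tdrkh, Asz1, Tex19.1 and Tex101. Every probe set that the annotation of the array platform assigns to only 1 of these genes was taken, which gave 13 probe sets for the 10 genes, out of 18193 genes with a probe set of their own and 45037 non-control probe sets on the array. Dazl, Stk31 and Asz1 had 2 probe sets each and every other gene had 1, and 0 probe sets were shared with another gene. RNA came from mouse J1 embryonic stem cells of the line Chd4i-1, which carries a doxycycline-inducible (Tet-on) RNAi construct against Chd4 in both groups. The control group (n = 2 arrays) received no doxycycline, and the Chd4 RNAi group (n = 2) received 5 ng/ml doxycycline for 3 days. Both groups were cultured on gelatin, with 15% serum and LIF, the cytokine that holds such cells in the undifferentiated state. Arrays of a group are biological duplicates by the series' design text. A line without the construct given doxycycline, and a line with a different construct, were not analysed here, so effects of the drug, of RNAi itself and of Chd4 loss cannot be told apart. The RNA is from whole cultures, in which fewer cells of a type and less RNA per cell cannot be told apart either.

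Germ cell genes of this kind work in the cells that form sperm and eggs, where they store and translate RNA and, through the piRNA pathway, silence transposons. In somatic cells many of them are kept off by methylation of the CpG dinucleotides in their promoters, and in embryonic stem cells a Polycomb complex called PRC1.6, which contains the factors E2F6 and MGA with its partner MAX, is known to repress a number of them. Chd4 is the ATPase of the NuRD complex, which moves nucleosomes and removes acetyl groups from histones. DNA methylation was not measured in these samples, so the methylation in the genes' description is background and not a result. The comparison asks how transcript levels of such genes differ between stem cells with normal and with reduced Chd4.

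Promoter windows of 250 bases before the annotated start were taken from RefSeq (GRCm38.p6) for all 10 genes, with 2 starts for Stk31 and 1 for each other gene. The windows held 14 to 31 CpG dinucleotides, with a median of 18, whereas the median over all 32851 windows of the same length (27025 genes) was 6. Windows with at least 14 CpGs made up 29.4% of all windows. Ddx4 had the highest count of these genes, 31, which 5.19% of all windows reached, and Taf7l and Tex101 had the lowest. An E-box with the letters CACGTG, which reads the same on both strands and is bound by MAX-containing dimers among other factors, was present for 5 of the 10 genes, against 6.02% of all windows and 9.80% of the windows with at least 14 CpGs. It was found before Ddx4, Mael, Taf7l, Slc25a31 and Stk31, and both windows of Stk31 hold the same copy. An E2F-type motif, GCGGGA on either strand, was present for 3 genes, Ddx4, Mael and Tex19.1, against 16.9% of all windows and 41.7% of those with at least 14 CpGs. Ddx4 and Mael had both motifs, which did not overlap in any window, and Dazl, Tdrkh, Asz1 and Tex101 had neither. A match describes letters only and is not evidence of binding, and a window without one says nothing of the factor. The E-boxes are shown with 10 bases on each side because 5 of the 10 genes share the motif, read 5′ to 3′ on the gene's strand with the motif in capitals. They lie at chr13:112652324-112652349 (minus strand) for Ddx4, chr1:166238952-166238977 (minus) for Mael, chrX:134476524-134476549 (minus) for Taf7l, chr3:40708768-40708793 (plus) for Slc25a31 and chr6:49395474-49395499 (plus) for Stk31.
Ddx4: cgtccgcccgCACGTGcagccgttta
Mael: ccaggcctacCACGTGacaatccccg
Taf7l: cctcttatacCACGTGacagaactcg
Slc25a31: caactggaaaCACGTGttatggtcac
Stk31: gccggccaccCACGTGaccagggctg

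The whole window is shown for 4 genes whose transcripts differed most between the groups, Ddx4 and Tdrkh, which fell, Tex19.1, which rose, and Tex101, which lay below the array median in the controls only. The Ddx4 window is chr13:112652311-112652560 on the minus strand, that of Tdrkh chr3:94412994-94413243 on the plus strand, that of Tex19.1 chr11:121145893-121146142 on the plus strand and that of Tex101 chr7:24672051-24672300 on the minus strand. Capitals mark the E-box and the E2F-type motif. In Ddx4 the E-box begins 29 bases before the start and the E2F-type motif 136 bases before it, and in Tex19.1 the E2F-type motif begins 33 bases before the start. The windows of Tdrkh and Tex101 have no capitals because neither motif occurs in them.
Ddx4: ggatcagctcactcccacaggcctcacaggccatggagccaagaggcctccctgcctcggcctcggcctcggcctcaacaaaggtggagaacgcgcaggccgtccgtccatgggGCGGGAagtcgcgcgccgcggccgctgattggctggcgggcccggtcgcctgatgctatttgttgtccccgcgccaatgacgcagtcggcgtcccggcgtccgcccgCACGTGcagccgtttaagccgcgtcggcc
Tdrkh: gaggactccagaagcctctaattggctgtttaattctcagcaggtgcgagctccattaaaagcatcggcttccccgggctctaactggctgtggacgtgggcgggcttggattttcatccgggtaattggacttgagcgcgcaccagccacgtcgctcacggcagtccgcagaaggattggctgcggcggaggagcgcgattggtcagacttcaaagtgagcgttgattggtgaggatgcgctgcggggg
Tex19.1: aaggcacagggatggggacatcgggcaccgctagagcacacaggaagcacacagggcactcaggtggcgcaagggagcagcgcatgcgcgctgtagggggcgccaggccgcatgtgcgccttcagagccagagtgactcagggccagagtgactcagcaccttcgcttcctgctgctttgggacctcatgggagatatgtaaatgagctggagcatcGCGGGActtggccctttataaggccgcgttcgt
Tex101: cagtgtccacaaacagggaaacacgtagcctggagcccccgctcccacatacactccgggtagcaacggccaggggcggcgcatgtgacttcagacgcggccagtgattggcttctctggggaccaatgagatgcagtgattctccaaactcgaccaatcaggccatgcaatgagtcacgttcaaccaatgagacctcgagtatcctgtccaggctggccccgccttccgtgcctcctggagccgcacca

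**Figure D1:**
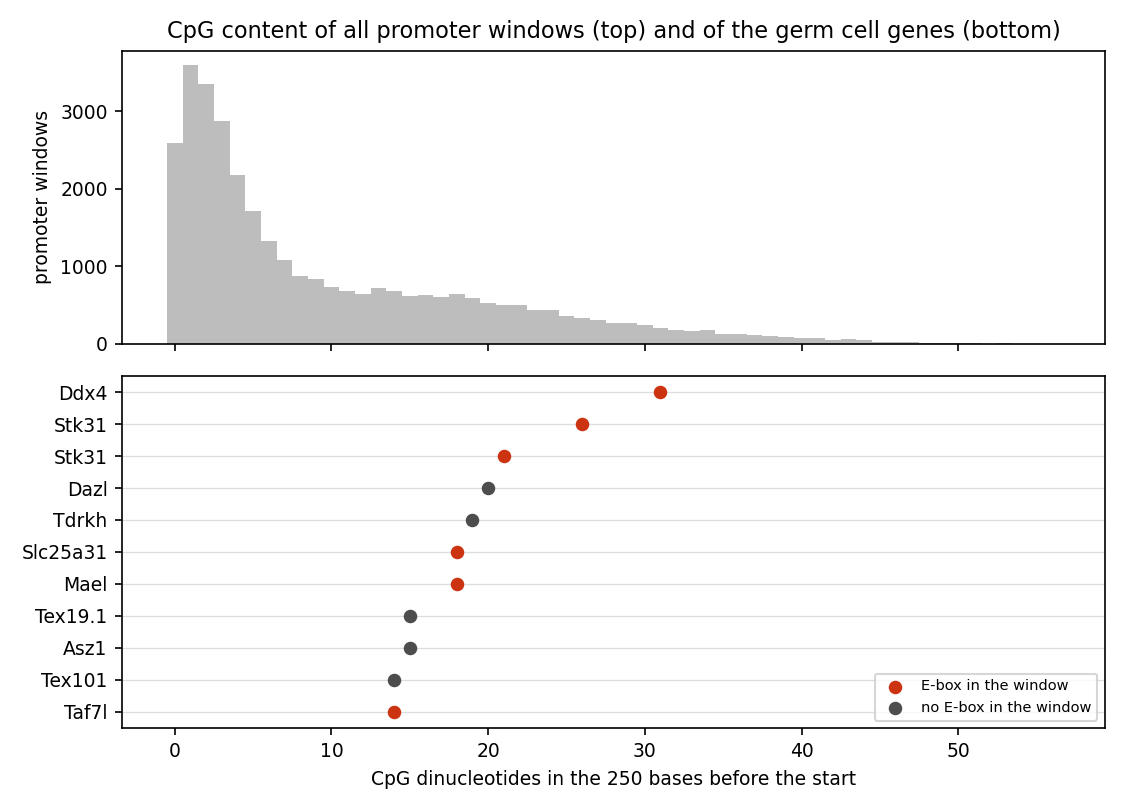
The upper panel counts all 32851 promoter windows by their number of CpG dinucleotides in the 250 bases before the start, and the lower panel places the 11 windows of the germ cell genes on the same axis, coloured by whether the window holds an E-box. The germ cell windows lie between 14 and 31 CpGs, to the right of the overall median of 6.

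Chd4 itself was lower in the RNAi arrays at each of its 3 probe sets, with 48.5% to 65.0% of the control signal (adjusted p = 0.000244 to 0.00638). Signals are MAS5 values on a linear scale, and the median over the non-control probe sets was 75.2 and 76.5 on the control arrays and 79.4 and 73.4 on the RNAi arrays. Differences are log2 signal in Chd4 RNAi minus control with the standard error (SE) of a limma fit, and adjusted p values are by Benjamini-Hochberg over the 27022 probe sets above a signal filter. All 9 embryonic stem cell markers examined lay above the median on all 4 arrays, as did 56.1% of all genes. Among the 9 markers, Utf1 rose 1.24-fold (adjusted p = 0.0142), and Esrrb and Klf4, regulators of the pluripotent state, fell 1.22-fold and 1.19-fold (adjusted p = 0.00722 and 0.0106). That is 1 higher and 2 lower of 9, where 10.3% and 7.79% of all tested genes were called. The calls of Klf4 and Utf1 ended without control replicate 2 (adjusted p = 0.0917 and 0.114). The core factors Pou5f1, Sox2 and Nanog did not pass (log2 -0.17, 0.072 and 0.0056, adjusted p = 0.0856, 0.360 and 0.956), but Pou5f1 passed as lower under quantile normalization (adjusted p = 0.0481), where 4 of the 9 markers were lower, and without RNAi replicate 1 (adjusted p = 0.0167).

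Of the 13 germ cell probe sets, 8 lay above the array median on all 4 arrays. These were the probe sets of Ddx4, Mael, Taf7l, Tdrkh and Tex19.1, both of Stk31 and 1 of the 2 of Dazl. By the brightest probe set, 7 of the 10 genes lay above the median on all arrays, controls included, against 56.1% of all 18193 genes, and Taf7l did so narrowly in control replicate 1 (76.4 against a median of 75.2). Both probe sets of Asz1 lay below the median on every array. The remaining 3 probe sets, of Slc25a31, Tex101 and the second of Dazl, lay on both sides. A signal above the median is not a detection call, and detection calls were not used here, so these levels do not settle whether the genes were silenced in the cultures.

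**Figure D2:**
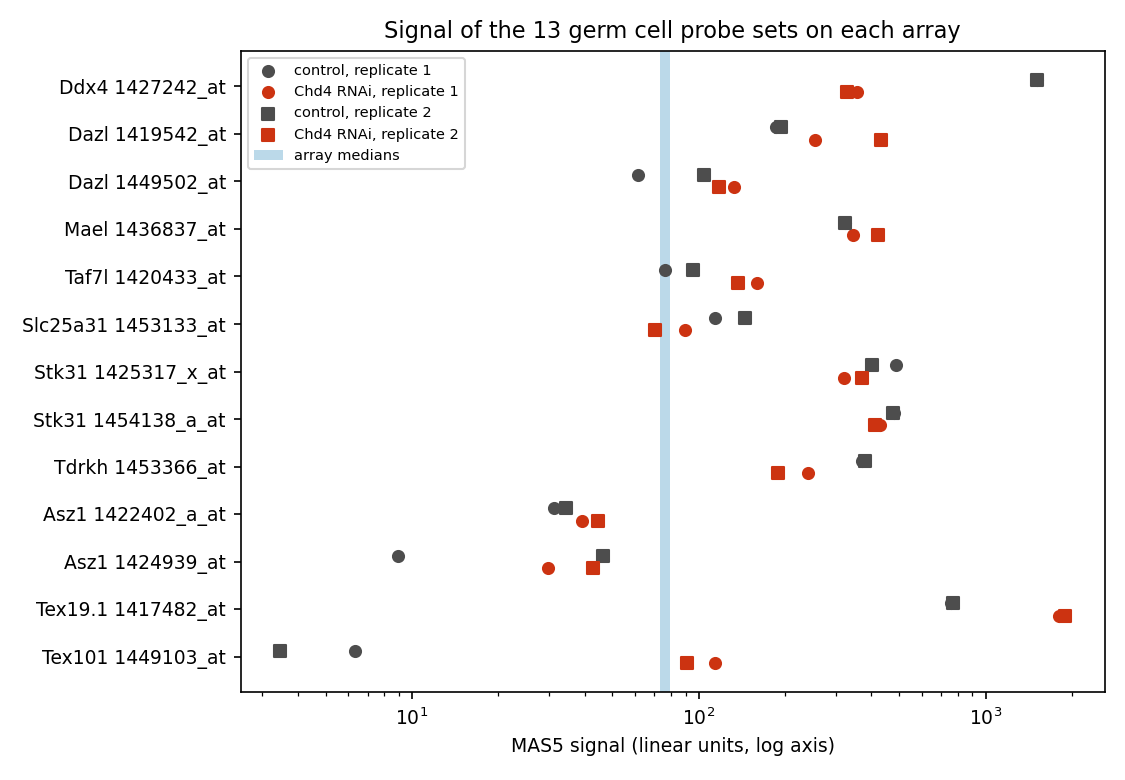
MAS5 signal (log axis) of each germ cell probe set on the 2 control arrays (grey) and the 2 Chd4 RNAi arrays (red), with circles for replicate 1 and squares for replicate 2. The blue band spans the 4 array medians (73.4 to 79.4). The signals of Ddx4 and Tdrkh lie lower in the RNAi arrays, those of Tex19.1 and Tex101 lie higher, and Asz1 lies left of the band throughout.

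Knockdown of Chd4 went with changes in opposite directions among these genes. Ddx4 and Tdrkh fell and Tex19.1 and Dazl rose, while Mael, Taf7l, Slc25a31 and Stk31 did not pass the test and Asz1 and Tex101 were too dim on average to be tested. Of the 10 tested probe sets, from 8 genes, 2 were higher and 2 lower at an adjusted p under 0.05. Over all 27022 tested probe sets 7.46% were higher and 6.77% lower. By the brightest probe set of each gene the counts were again 2 higher and 2 lower of 8, where 10.3% and 7.79% of 12615 tested genes were called. With 10 probe sets the counts are too few to read as a share. The median log2 difference of the tested germ cell probe sets was 0.030, and that of all tested probe sets was -0.012. The groups did not overlap for 12 of the 13 probe sets, 7 of them higher and 5 lower in the RNAi arrays, and 47.9% of all non-control probe sets had such groups. Among the tested probe sets it was 10 of 10, against 55.9% of all tested. Without an intensity trend in limma's variance model 0 of the 27022 probe sets passed in limma, although 5828 had an unadjusted p under 0.05, so that all 4 calls and those of Chd4 end under that setting. With signals under the overall median of 76.0 set to that value, 490 probe sets passed, among them Ddx4 and Tex19.1 (adjusted p = 0.0369 for each). Tdrkh and Dazl (1419542_at) did not pass, nor did the 3 probe sets of Chd4 (adjusted p = 0.0726 to 0.214). The floor changed no signal of these probe sets, so their losses come from the fit over all probe sets and not from dim signal.

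**Figure D3:**
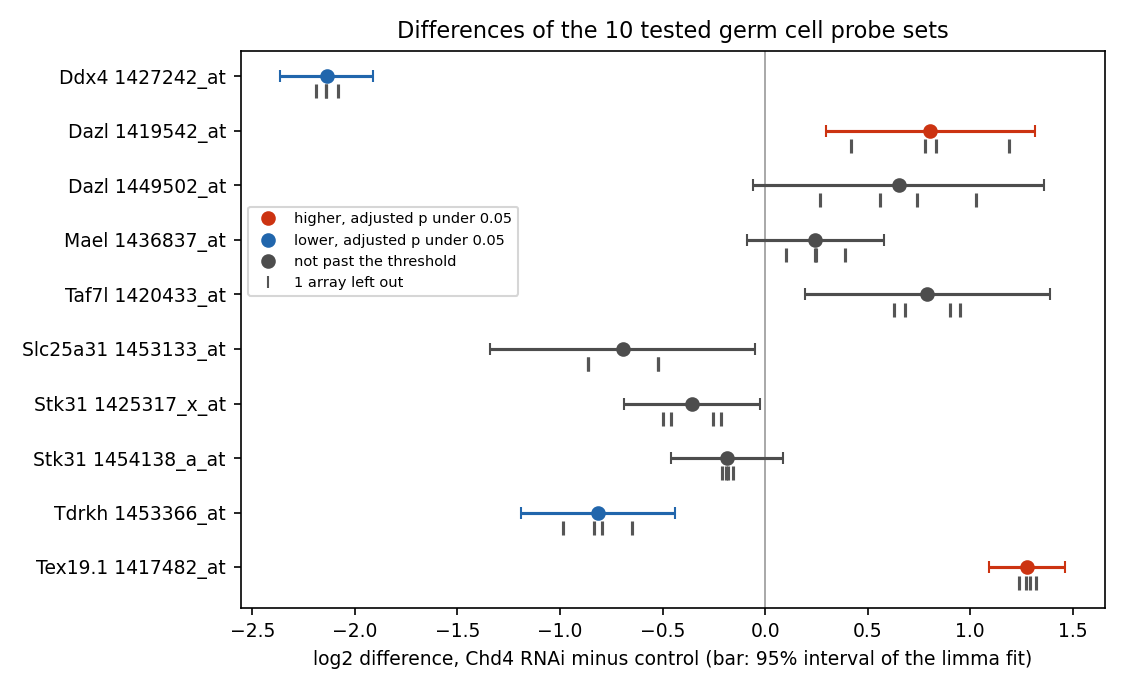
Log2 difference between Chd4 RNAi and control for the 10 tested germ cell probe sets, with the unadjusted 95% interval of the limma fit as a bar and the values with 1 array left out as ticks, some of which coincide. Ddx4 and Tdrkh lie left of 0 and Tex19.1 and Dazl (1419542_at) right of it, and the ticks of Dazl spread from 0.42 to 1.19.

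Ddx4 and Tdrkh, together with Mael and Asz1, belong to the RNA granules (nuage) of germ cells in which piRNAs are made. Ddx4 encodes the mouse VASA homologue, a DEAD-box RNA helicase and classical germ cell marker. Probe set 1427242_at gave 1506 and 1505 in the controls, against 356 and 329 in the RNAi arrays. The groups were far apart, and the RNAi arrays kept 22.7% of the control signal, still above the array median. The log2 difference was -2.14 ± 0.10 SE (adjusted p = 1.07e-06), which was the 19th largest fall among the 27022 tested probe sets. Falls of at least 4-fold that passed the test were found for 23 probe sets, or 0.0851% of those tested. The difference stayed between -2.19 and -2.08 when each array was left out in turn. In each such fit 1 group has a lone array, which is assumed to vary like the arrays of the other group, and fewer degrees of freedom remain. Without the intensity trend it kept its size, at an adjusted p of 0.0594.

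Tdrkh encodes a Tudor and KH domain protein that holds PIWI proteins at mitochondria and takes part in trimming piRNAs. Probe set 1453366_at gave 369 and 380.3 in the controls, against 239 and 189.5 in the RNAi arrays. Both RNAi arrays lay below both controls, at 56.8% of the control signal. The log2 difference was -0.82 ± 0.17 SE (adjusted p = 0.00894), and leaving out 1 array gave -0.98 to -0.65, with adjusted p values from 0.00360 to 0.0437. Its call ended without the intensity trend (adjusted p = 0.120) and also with signals floored at the median (adjusted p = 0.133). The floor changed none of its signals, so that loss comes from the fit over all probe sets and not from dim signal.

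Mael encodes Maelstrom, a piRNA pathway protein needed for transposon silencing in the male germ line. Probe set 1436837_at gave 323 and 324 in the controls, against 346 and 423 in the RNAi arrays. The RNAi arrays were higher but differed from each other by more than RNAi replicate 1 differed from the controls. The log2 difference of 0.24 ± 0.15 SE did not pass (adjusted p = 0.332), with a 95% interval from -0.089 to 0.58. Asz1 encodes GASZ, a scaffold of the mitochondria-associated granules. Probe set 1422402_a_at read 31.2 and 34.3 without and 39.2 and 44.6 with RNAi. Probe set 1424939_at gave 8.96 and 46.2 without and 29.9 and 42.7 with RNAi. The groups overlapped at the second probe set, all 8 values were below the median, and neither probe set reached the filter on average (a signal of 42.4), so no fold is given.

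Dazl and Stk31 act on RNA or in its granules. Dazl encodes an RNA-binding protein that promotes translation in germ cells. Probe set 1419542_at gave 186 and 193 in the controls, against 254 and 433 in the RNAi arrays. The controls nearly coincided, and the second RNAi array was well above the first. The log2 difference was 0.81 ± 0.23 SE (adjusted p = 0.0398). Its size turned on the RNAi arrays: without RNAi replicate 2 it was 0.42 and the call ended (adjusted p = 0.279), whereas without RNAi replicate 1 it was 1.19 (adjusted p = 0.00165). Without control replicate 1 or 2 the difference kept its size (0.78 and 0.83), but with fewer degrees of freedom it did not pass (adjusted p = 0.0837 and 0.0654). It also ended under quantile normalization (0.80, adjusted p = 0.0541) and without the signal filter (adjusted p = 0.0830). The other Dazl probe set, 1449502_at, gave 61.2 and 104 in the controls, against 133 and 118 in the RNAi arrays, with 1 control below its array's median. It pointed the same way at 0.65 ± 0.32 SE and did not pass (adjusted p = 0.217).

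Stk31 encodes a protein with a Tudor domain and a kinase domain, found in spermatogenic cells. Probe set 1454138_a_at gave 478.5 and 475 in the controls, against 428 and 412 in the RNAi arrays, a log2 difference of -0.18 ± 0.12 SE (adjusted p = 0.379) with a 95% interval from -0.46 to 0.090. Probe set 1425317_x_at gave 487 and 400.2 in the controls, against 321 and 370.3 in the RNAi arrays, a difference of -0.36 ± 0.15 SE (adjusted p = 0.147). Both probe sets were lower in both RNAi arrays, and neither passed. In the maker's naming, _x_at marks a probe set with probes that may also match other transcripts.

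Taf7l and Slc25a31 are germ cell counterparts of genes used in most cells. Taf7l encodes a relative of the TFIID subunit TAF7 that serves transcription in spermatogenic cells. Probe set 1420433_at gave 76.4 and 95.5 in the controls, against 159 and 137 in the RNAi arrays. The first control lay just above its array's median of 75.2, and both RNAi arrays lay above both controls. The log2 difference of 0.79 ± 0.27 SE did not pass over all probe sets (adjusted p = 0.0783). Slc25a31 encodes the germ cell form of the mitochondrial ADP/ATP carrier. Probe set 1453133_at gave 114 and 145 in the controls, against 89.3 and 70.6 in the RNAi arrays, the last of them below its array's median of 73.4. The log2 difference of -0.69 ± 0.29 SE did not pass (adjusted p = 0.147). The 95% intervals, from 0.19 to 1.39 for Taf7l and from -1.34 to -0.048 for Slc25a31, are unadjusted for the number of probe sets.

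Tex19.1, a gene of germ cells, placenta and pluripotent cells that restrains retrotransposons, had the largest rise among the tested germ cell genes. Probe set 1417482_at gave 757 and 769 in the controls, against 1799.6 and 1898 in the RNAi arrays. Replicates lay close together in both groups and the groups were well apart, a 2.42-fold rise. The log2 difference was 1.28 ± 0.085 SE (adjusted p = 5.75e-06), the 392nd largest rise of the 27022 probe sets. Rises of at least 2-fold that passed the test were found for 481 probe sets (1.78%). With 1 array left out the difference was 1.24 to 1.32. Without the intensity trend the call ended (adjusted p = 0.0618).

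Tex101, which encodes a surface protein of male germ cells needed for sperm to pass into the oviduct, gave 6.34 and 3.46 in the controls, against 114 and 90.8 in the RNAi arrays at 1449103_at. Both control signals were far below their array medians and both RNAi signals above theirs, a pattern shared by 513 of all 45037 non-control probe sets (1.14%). With signals under 76.0, the median over all arrays, set to that value, the RNAi group was at least 1.34-fold higher. The bound allows for dim signals and not for the spread between replicates. Tex101 lay below the signal filter and was therefore not tested. When all probe sets were tested its log2 difference was 4.44 (adjusted p = 0.0113), a size that rests on control signals too dim to set a fold.

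The genes most like Ddx4 and Tex19.1 in pattern over the 4 arrays were sought among the other genes above the filter, by the Euclidean distance between log2 values centred on the mean of the 4 arrays. Nearest to Ddx4 were Abca1, Ntn1 and Gbx2, at distances of 0.21, 0.26 and 0.36. Nearest to Tex19.1 were Crb1, Acap1 and Ifi35, at 0.053, 0.067 and 0.076. Crb1 read 36.9 and 39.1 in the controls, against 87.4 and 92.8 with RNAi. Its controls lay below their array medians and the filter signal of 42.4, so it passed the filter only through its RNAi signals. With 4 arrays in 2 groups such a distance mostly reads the size of the group difference and the spread of the replicates.

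Other genes of the same pathways were counted by the brightest probe set of each gene. In a list of the piRNA pathway and nuage without the genes above, 6 of 16 tested genes were higher and 2 lower, against 10.3% and 7.79% of all genes, with a median log2 difference of 0.61 against 0.014 over all genes. The list was chosen with earlier results of these data known, so the contrast is description and does not set the list apart. Without the intensity trend 0 genes of the list were called in limma. The 6 higher genes include Piwil1, whose control signals of 22.8 and 53.8 both lay below their array medians. Their mean of 38.3 was also under the filter signal of 42.4, so Piwil1 was tested only through its RNAi signals. Gtsf1, a piRNA factor, rose 3.54-fold (adjusted p = 0.000261), Tdrd12, a Tudor helicase, 1.84-fold (adjusted p = 0.000103) and Rnf17, a Tudor protein of spermatids, 1.57-fold (adjusted p = 0.00163). Ddx25, a testis helicase, fell 2.20-fold (adjusted p = 0.000676), as Ddx4 did. Mov10l1, a helicase of piRNA processing, was the other gene lower (adjusted p = 0.0360), from 138 and 140.2 to 79.8 and 46.0. The last of these lay below its array's median of 73.4, so with the floor at 76.0 the fall was at least 1.79-fold, and the call ended without either control array or without RNAi replicate 2 (adjusted p = 0.121 to 0.129). In a list of other germ cell genes known to be silenced by promoter methylation, which shares Mov10l1, Rnf17 and Tdrd1 with the first, 3 of 12 tested genes were higher and 1 lower, with a median of 0.091. This second list also holds Zfp42, a stem cell marker above with signals from 18107 to 18960 on the 4 arrays. Syce1, of the synaptonemal complex, rose 2.24-fold (adjusted p = 2.57e-05), and Brdt, a testis bromodomain gene below the array median in both controls, rose from 58.6 and 32.9 to 230.0 and 179 (adjusted p = 0.00181). With signals floored at the median, Mov10l1 was the 1 gene of the piRNA list that passed (adjusted p = 0.0396), and in the second list it passed with Syce1 (adjusted p = 0.0493), whereas Gtsf1, Tdrd12, Rnf17, Ddx25 and Brdt did not (adjusted p = 0.0598 to 0.128). The floor raised the Mov10l1 signal of 46.0 to 76.0, beside 79.8 on the other RNAi array, so its pass rests on a narrowed spread. Of Gtsf1, Tdrd12, Rnf17, Ddx25 and Brdt, only Brdt had signals under the floor. Without the signal filter the call of Mov10l1 ended (adjusted p = 0.0897).

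**Figure D4:**
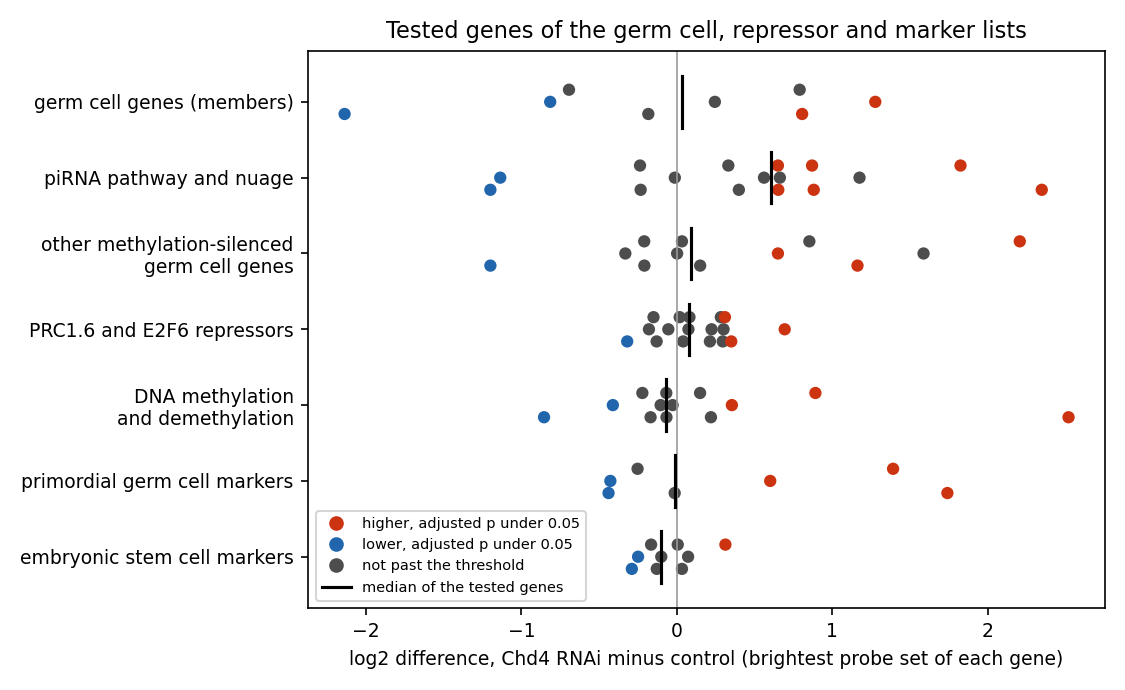
Log2 difference between Chd4 RNAi and control of each tested gene, by its brightest probe set, for the germ cell genes described here and 6 lists, with colours for calls at an adjusted p under 0.05 and a black line at the median. The germ cell genes spread from -2.14 to 1.28 around a median of 0.030, and the piRNA list has its median at 0.61.

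Among genes for PRC1.6 and related repressors 3 of 17 tested rose and 1 fell (17.6% and 5.88%, against 10.3% and 7.79% of all genes). E2f6 rose 1.62-fold (adjusted p = 0.00242) and Pcgf6, the Polycomb subunit particular to PRC1.6, 1.27-fold (adjusted p = 0.00714), while the deacetylase gene Hdac2 fell 1.25-fold (adjusted p = 0.00605). L3mbtl2 passed at 1.24-fold higher (adjusted p = 0.0320) but no longer when control replicate 2, RNAi replicate 1 or RNAi replicate 2 was left out (adjusted p = 0.0714 to 0.181). Mga and Max did not pass (log2 -0.15 and 0.28, adjusted p = 0.212 and 0.0869), though Max passed without RNAi replicate 1 (adjusted p = 0.0360). The call of L3mbtl2 also ended without the signal filter (adjusted p = 0.0501). Of 13 tested genes of DNA methylation and demethylation, 3 rose and 2 fell (23.1% and 15.4%). Counts of this size are too few to set either list apart from all genes. Dnmt3l and Dnmt3b, of de novo methylation, rose 5.74-fold and 1.86-fold (adjusted p = 2.24e-08 and 1.75e-05), and the dioxygenase gene Tet2 fell 1.81-fold (adjusted p = 9.53e-05). With signals floored at the median Dnmt3l and Dnmt3b still passed (adjusted p = 0.0370 and 0.0369), and E2f6, Pcgf6, Hdac2, L3mbtl2 and Tet2 did not (adjusted p = 0.0718 to 0.140). The floor changed no signal of these genes, so the lost calls do not show dependence on dim signal. How the levels of these genes relate to those of the germ cell genes was not tested.

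Markers of cells that could carry germ cell transcripts were examined beside these results. Over all tested genes 10.3% were higher and 7.79% lower. Of all 18193 genes 56.1% lay above the median on all arrays and 6072 genes lay below it on every array. The marker lists are too short for their counts to be read as shares. Of 7 primordial germ cell markers, all were above the median on all arrays, 3 rose (Tfap2c, Dppa3 and Prdm1) and 2 fell (Ifitm3 and Dnd1), with a median log2 difference of -0.014. Their signals summed to 7644 and 7512 without and to 9321 and 9648 with RNAi, of which Tfap2c, also a trophectoderm marker, made up 1229 and 1115 without and 2947 and 3199.8 with RNAi. The call of Prdm1 ended without control replicate 2 or RNAi replicate 1 (adjusted p = 0.0581 and 0.101). Dnd1 passed narrowly (adjusted p = 0.0493), and its call ended under quantile normalization (adjusted p = 0.0671), without the filter (adjusted p = 0.0856) and without either control array or RNAi replicate 1 (adjusted p = 0.0877 to 0.246). Of 8 markers of later male germ cells, 6 lay below the median on every array, among them the protamine genes Prm1 and Prm2, and the 8 signals summed to 219 and 237 without and to 651 and 536 with RNAi. The other 2 were Piwil1 and Ldhc. Piwil1 rose from 22.8 and 53.8 to 209 and 152 (adjusted p = 0.00409). Its control mean of 38.3 was under the filter signal of 42.4, so it was tested only through its RNAi signals. Its call is therefore description only. Ldhc rose from 51.5 and 97.5 to 270 and 236 (adjusted p = 0.00262). Both Piwil1 controls and control replicate 1 of Ldhc lay below their array medians, so these rises can only be bounded. With signals floored at the overall median they were at least 2.34-fold and 2.93-fold. The bounds allow for dim signals and not for the spread between replicates. Of 7 oocyte markers, 4 lay below the median on every array and 0 of 4 tested were called in limma, with 1 at an unadjusted p under 0.05. Of 5 listed markers of the 2-cell-like state, 3 had a probe set of their own, and Zscan4c and Zscan4d did not. All 3 lay below the median on every array and 0 were tested, so the presence of that state was not tested. Among markers of other lineages, Thy1 of 4 tested fibroblast genes and Tfap2c and Krt7 of 3 tested trophectoderm genes rose, and 0 of 3 tested primitive endoderm genes were called, with 1 at an unadjusted p under 0.05. That gene was Pdgfra, which is also on the fibroblast list. With signals floored at the median Tfap2c, Ifitm3 and Krt7 passed (adjusted p = 0.0460, 0.0460 and 0.0474), and the other called markers of these paragraphs, those of stem cells included, did not (adjusted p = 0.0545 to 0.257). The floor set both Krt7 controls, 69.4 and 72.7, to the same value and so removed their spread. Among the other called markers, the floor changed signals of Piwil1 and Ldhc only. The part of these cell types in the results was not tested.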

How the data were processed

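Expression was measured on 4 Affymetrix arrays, 2 per group. Per the labels' protocols, 6 ug of total RNA gave the biotin-labelled cRNA of an array. The authors deposited linear array intensity, 1 MAS5 signal for each probe set and array according to the submitters' processing notes. Its version and scaling target are not given in the sources used here. Dim MAS5 signals are noisy, and the number of arrays limits precision. Titles gave the groups and replicate numbers.

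Probe sets were named by the platform annotation. Of 45037 non-control probe sets 34945 had 1 symbol, 932 several and 9160 none. Symbols compared with RefSeq by gene ID differed for 0 probe sets, and 204 probe sets had an ID without an entry. Log2 signals without a pseudocount were fitted with limma 3.58.1 (R 4.3.3; lmFit, and eBayes with an intensity trend), two-sided, over the 27022 probe sets in the top 60% by mean log2 level (a signal of at least 42.4), with 2 residual and 9.24 prior degrees of freedom. The fit was run on simulated data drawn from its own variance model, which cannot test the choice of an intensity trend. Named genes were the 10 germ cell genes, Chd4, up to 4 called genes of each list by p value, and the 3 genes nearest in pattern to the members with the largest fall and rise. Genes named beyond this rule (Mga, Max, Dnd1, Prm1, Prm2, Pou5f1, Sox2 and Nanog) were chosen after their values were seen. Zfp42, Pdgfra and Tdrd1 were also named beyond it, as genes shared between lists. Zscan4c and Zscan4d were named as listed genes without a probe set of their own. Members and lists were chosen with earlier results of these data known. No set test was run. Alternatives changed the normalization, pseudocount, filter, floor, variance model, choice of probe sets, replicate block and arrays.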

Additional observations from a re-analysis of the deposited data

How the results depend on the processing

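The 10 tested germ cell probe sets and those of Chd4 kept their direction under every alternative in which they were tested. The groups of all these probe sets did not overlap, so only quantile normalization could have reversed a direction. Without the intensity trend limma called 0 of 27022 probe sets (5828 at an unadjusted p under 0.05), so 0 germ cell probe sets were higher and 0 lower, with 2 and 3 at an unadjusted p under 0.05; the lowest adjusted p, 0.0594, was shared by Ddx4. With 1 probe set per gene and no trend, an alternative chosen after seeing the data, 421 genes passed, with 1 germ cell gene higher (Tex19.1) and 1 lower (Ddx4), both at an adjusted p of 0.0294. With signals floored at the median 490 probe sets passed, 1 germ cell probe set higher and 1 lower; in that fit 2122 probe sets had the same value on all arrays, which have no variance. Quantile normalization left 1 higher, and the log2 difference of Nanog changed sign there, from 0.0056 to -0.025, without passing in either fit. Leaving out each array gave 1 to 2 higher and 2 lower germ cell probe sets, 2497 to 3584 probe sets called in all, against 3847 with all arrays, and 8 to 9 germ cell probe sets above the median on every array used. Without control replicate 2 the 2497 calls are fewer by over 1.5 times. The replicate numbers share only a number: deviations of same-numbered arrays correlated at -0.0019, and a fit with the replicate block called 3635 probe sets, with 2 germ cell probe sets higher and 2 lower. The pseudocount of 16, the filter at the top 40%, no filter and 1 probe set per gene also gave 2 higher and 2 lower, but without the filter the 2 higher were Tex19.1 and Tex101, as Dazl no longer passed. Low signal limits Asz1 and Tex101, for which no difference could be sized.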

Other observations

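The E-boxes of Mael, Taf7l and Stk31 share the 9 letters CCACGTGAC on the gene's strand. Counted on both strands, this stretch occurs in 0.734% of all promoter windows and in 1.6% of those with at least 14 CpGs. The stretch was chosen after the sequences were seen. The 3 genes differ in direction in these arrays, with log2 differences of 0.24 for Mael, 0.79 for Taf7l and -0.18 for Stk31 (1454138_a_at), none of which passed the test.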
